A study of Mus musculus with 2 samples.

Results

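The authors' ribosomal flag marked 179 of the 28523 genes detected in single-cell libraries of 4T1 liver metastases, and the members were taken from that flag alone. The flag covers both ribosomes of the cell and some proteins that are not part of either. It held 77 of the 80 proteins of the mouse cytosolic ribosome, 78 genes named for the mitochondrial ribosome, 8 paralogues of cytosolic ribosomal proteins, 5 protein-coding genes whose names end in -ps, 10 genes of the S6 kinase family and 1 binding protein gene. What the deposited tables record for these genes is whether a gene was listed in neutrophils, whether it was among the most variable genes, and its values where it was a neutrophil cluster marker. The share of UMIs (molecule counts) that these genes took by cell type, library or neutrophil cluster was not analysed here, and no level of a member was compared between the libraries.

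The metastases came from 4T1 cells, a BALB/c mouse triple-negative breast cancer line. The cells carried a lentiviral pLKO.1 hairpin under puromycin selection, either scrambled (shSCR, the control) or against Zdhhc17 (shZdhhc17), and were injected into the spleens of female BALB/c mice aged 6 to 8 weeks. Spleens were removed after injection and liver metastases were dissected on day 14. The hairpin was in the injected cancer cells, so the neutrophils and other host cells of both groups carried none. Dissociations from 3 mice were pooled in each group and run as 1 BD Rhapsody library, which leaves no replicate libraries, so no test between groups was possible.

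A ribosome reads messenger RNA and joins amino acids into protein. In the cytosol it is built from a small subunit, which binds and decodes the message, and a large subunit, which forms the peptide bond. The mitochondrial ribosome is a separate machine with its own proteins, encoded in the nucleus, and makes the few proteins of the mitochondrial genome. Messenger RNAs of cytosolic ribosomal proteins are known for a stretch of pyrimidines at their 5′ end, the 5′ terminal oligopyrimidine tract, through which mTOR signalling controls their translation. In neutrophils, granule proteins are made mainly in bone marrow precursors, and mature cells are known to hold less RNA.

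Start regions are shown for 8 members of the cytosolic core and its paralogues, among them the neutrophil cluster marker Rps26. They do not stand for their class, and no mitochondrial or S6 kinase gene is shown. Each runs from 30 bases before to 20 bases after the annotated start (RefSeq, GRCm38.p6), on the strand of the gene. Capitals mark the longest run of C and T within the 30 bases from 10 before to 20 after the start. Rps26 and Rps6 encode small subunit proteins, Rplp0 the base of the large subunit stalk, and Rpl11 a large subunit protein that also binds the p53 regulator Mdm2. Rpl10 and Rpl39 encode large subunit proteins and are set beside their paralogues Rpl10l and Rpl39l, which are known for expression in the testis.
Rps26 (chr10:128626487-128626536, minus strand): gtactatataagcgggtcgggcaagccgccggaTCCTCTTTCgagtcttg
Rps6 (chr4:86857348-86857397, minus strand): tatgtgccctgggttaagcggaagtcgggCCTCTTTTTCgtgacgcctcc
Rplp0 (chr5:115559437-115559486, plus strand): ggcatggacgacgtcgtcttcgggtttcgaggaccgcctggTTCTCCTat
Rpl11 (chr4:136053374-136053423, minus strand): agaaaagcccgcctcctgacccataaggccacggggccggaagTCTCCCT
Rpl10 (chrX:74270786-74270835, plus strand): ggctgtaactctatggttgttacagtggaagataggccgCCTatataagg
Rpl10l (chr12:66284382-66284431, minus strand): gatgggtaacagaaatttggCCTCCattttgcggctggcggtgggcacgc
Rpl39 (chrX:37085203-37085252, minus strand): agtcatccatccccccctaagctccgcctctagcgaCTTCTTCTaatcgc
Rpl39l (chr16:10170198-10170247, plus strand): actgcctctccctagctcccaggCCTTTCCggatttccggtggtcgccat

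The run was 10 bases in Rps6, beginning 1 base before the start, and 9 bases in Rps26, beginning at base 4. It was 8 bases in Rpl39, beginning at base 7, and 7 bases each in Rplp0, Rpl11 and Rpl39l. These began at base 12 in Rplp0 and base 14 in Rpl11. The Rpl11 run reached the last base of the searched window, so its full length may be more than 7. In Rpl39l the run began 7 bases before the start and ended before it. A run counted here thus need not lie at the 5′ end of the message. Rpl10 had 3 and Rpl10l had 5, so neither this parent nor its paralogue reached 7. The subunit anchors Rpl5 and Rpsa, whose regions are not shown, had 3 and 5.

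Over all classes, 143 of the 179 members had a start region in the RefSeq table, where a gene with several starts counted by its longest run. A run of at least 7 pyrimidines was found in 30 of the 57 cytosolic core genes with a region (52.6%). It was found in 9 of 69 mitochondrial members (13.0%), 3 of 8 paralogues and 2 of 8 S6 kinase genes. Among all detected genes with a region the share was 20.7%, and among those coding for protein it was 20.5%. On the opposite strand of the same windows, 4 of the 57 cytosolic core genes held such a run (7.02%), against 22.8% of the protein-coding genes and 14.5% of the mitochondrial members. The cytosolic core thus had more runs on the sense strand than the protein-coding background and fewer on the other strand, while mitochondrial members had similar shares on both. A run on the sense strand leaves less room in the same window for a run on the opposite strand, so these differences are not separate. A run describes the letters near an annotated start, which may not be the start used in these cells.

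The cytosolic core also differed from the mitochondrial members in the small nucleolar RNA (snoRNA) genes annotated inside its genes. SnoRNAs guide chemical modification of ribosomal RNA and are often cut from introns of host genes. In the GENCODE M21 annotation (GRCm38), 30 of the 77 cytosolic core genes (39.0%) held at least 1 snoRNA gene on the same strand, 58 snoRNA genes in all, against 1.23% of the detected protein-coding genes. None of the 78 mitochondrial members, 8 paralogues or 10 S6 kinase genes held any. Rps26 held none. Rpl5 and Rpsa held 3 each and Rpl3 held 2.

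**Figure D1:**
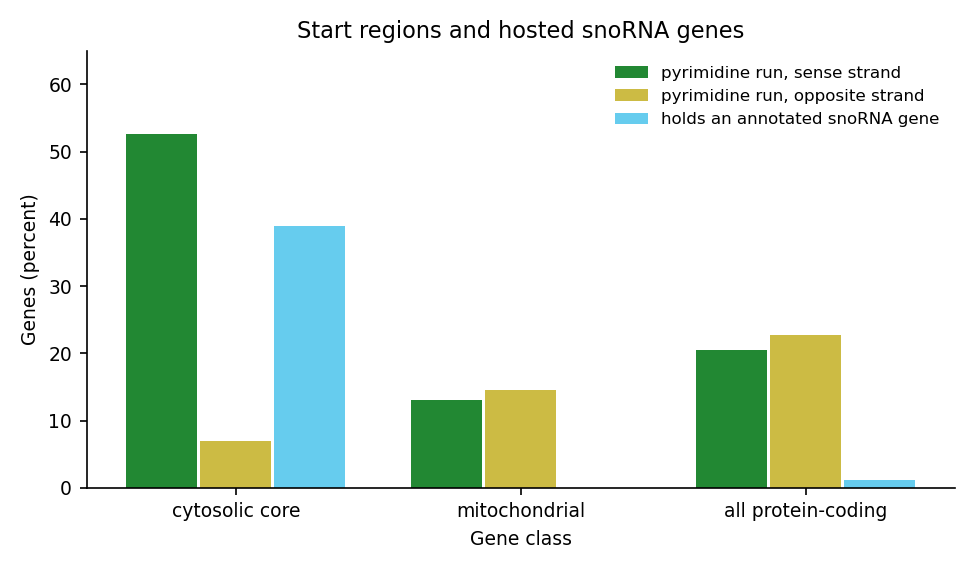
Percent of genes with a run of at least 7 pyrimidines near the annotated start (sense and opposite strand) and percent holding a snoRNA gene, for cytosolic core members, mitochondrial members and all detected protein-coding genes. Runs are counted over genes with a start region. The sense strand bar of the cytosolic core is at 52.6% and that of the mitochondrial members at 13.0%.

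The flag followed gene names, since each detected gene whose symbol begins with Rpl, Rps, Mrpl or Mrps carried it. The cytosolic core consisted of 46 large and 31 small subunit genes, among them the 3 stalk genes Rplp0, Rplp1 and Rplp2, which help recruit elongation factors. Genes of cytosolic ribosomal proteins with other symbols had no flag, such as Fau, which encodes a small subunit protein fused to a ubiquitin-like protein, and Rack1, a scaffold on the small subunit. Both were listed among the detected genes of the whole series and of neutrophils. The mitochondrial members were 49 large and 29 small subunit genes by name. Dap3, Aurkaip1, Chchd1, Ptcd3 and Gadd45gip1, which encode mitochondrial ribosomal proteins under other names, were detected without the flag. These 5 were looked up after the flag's makeup had been seen.

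In the other direction, 11 members are no ribosomal protein genes by symbol. The kinase genes Rps6kb1 and Rps6kb2 encode the S6 kinases, which act downstream of mTOR and phosphorylate the small subunit protein Rps6. Rps6ka1, Rps6ka2, Rps6ka3 and Rps6ka6 encode the RSK kinases downstream of ERK, and Rps6ka4 and Rps6ka5 encode the MSK kinases, which phosphorylate chromatin and transcription factors. Rps6kc1 and Rps6kl1 encode related proteins. Rps19bp1 encodes a protein that binds Rps19. The S6 kinase family genes had a median of 18.0 exons and a principal transcript of 4288 bases, against 5.0 exons and 886 bases for the cytosolic core.

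Single-exon genes were found among the paralogues and the genes with names ending in -ps. Rpl10l, Rpl36al and Rps27rt each had a single exon, as did Rpl10-ps3, Rpl36a-ps1, Rpl9-ps1 and Rpl9-ps6. Their parents Rpl10 and Rps27 had 6 and 4 exons. The remaining paralogues were Rpl3l, Rpl7l1, Rpl22l1, Rpl39l and Rps27l. GENCODE M21 annotates a further 306 pseudogenes named for ribosomal proteins, among them 1 of Rps26. None was among the detected genes. Whether the authors' gene reference held these pseudogenes was not examined, so this absence does not show that they were not expressed. Transcripts of these near copies cannot be separated with certainty, so the count of a parent may include reads from a copy. The 179 members lay on 20 chromosomes, with 20 each on chromosomes 7 and 11, 18 on chromosome 17, and 6 on the X chromosome.

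Nearly the whole flag was listed in neutrophils. Of the 179 members, 175 (97.8%) were in the authors' neutrophil gene table, beside 75.5% of all detected genes. The shares were 77 of 77 for the cytosolic core and 78 of 78 for the mitochondrial ribosome, and 79.9% for detected protein-coding genes. A listing says that the gene was detected among the 10922 neutrophils and gives no level.

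The 4 members that were detected in the whole series and not listed in neutrophils came from the small classes. They were the paralogues Rpl10l (chromosome 12, 66283379 to 66284401) and Rpl39l (chromosome 16, 10170226 to 10174911), the gene Rpl36-ps4 (chromosome 17, 87920977 to 87921393) and the RSK kinase gene Rps6ka6 (chromosome X, 111388192 to 111537959). Rpl10, Rpl39 and Rpl36 were listed in neutrophils, as were Rpl3, Rpl7, Rpl22, Rpl36a and Rps27, the parents of the other paralogues. So were the 6 other paralogues themselves, among them Rpl3l, known from skeletal and heart muscle, and Rps27l, a p53 target.

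**Figure D2:**
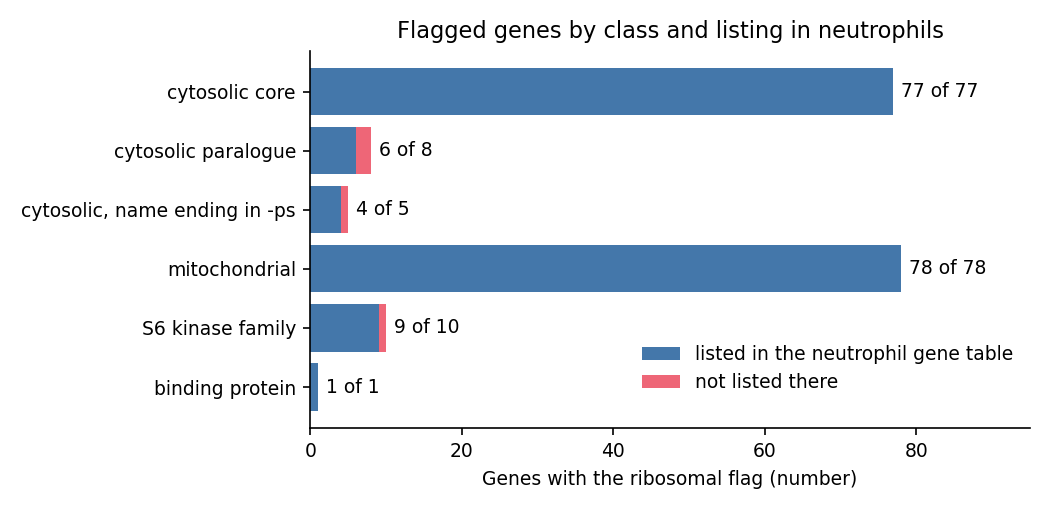
Number of flagged genes in each of the 6 classes, split into genes listed in the authors' neutrophil gene table and genes not listed there. All 77 cytosolic core and 78 mitochondrial genes were listed, and the 4 unlisted genes fall in the paralogue, -ps and S6 kinase classes.

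No member was among the 1000 most variable genes of all cells, a set that held 3.51% of all detected genes. None was among the 1000 most variable genes of neutrophils, which held 4.64% of the genes listed there. The same held for the other flags of the gene tables: 0 of 13 mitochondrial and 0 of 94 cell cycle genes were in either set. Of the neutrophil cluster markers, 74 of the 166 without any flag (44.6%) were among the variable genes of neutrophils, against 0 of the 14 with a flag. These 14 were 2 ribosomal, 2 mitochondrial and 10 cell cycle genes. Whether flagged genes were set aside before the variable genes were chosen is stated in none of the sources used here, so the absence of members says nothing on how much they varied.

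Few genes of protein synthesis outside the flag were among the variable genes of neutrophils. These were Eef1a1 and Eif5a, 2 of 29 listed translation factors, and Ncl and Npm1, 2 of 30 ribosome biogenesis genes, beside the 4.64% of all genes listed there. The small counts of translation factors and biogenesis genes are near that background. Eef1a1 brings aminoacyl-tRNA to the ribosome, and Eif5a helps it past difficult peptide bonds. Ncl and Npm1 encode the nucleolar proteins nucleolin and nucleophosmin. In all cells, 0 of 30 translation factors and 0 of 30 biogenesis genes were variable. Of 16 regulators of ribosomal protein synthesis, Rictor and Rptor, which encode the defining subunits of the mTOR complexes, were variable in both sets. Tsc1, which encodes an inhibitor of mTOR signalling, was among the variable genes of neutrophils. Of these 16 regulators, 2 carry the flag, Rps6kb1 and Rps6kb2, and neither was variable. The counts were 3 of 16 in neutrophils, beside 4.64% of all genes, and 2 of 16 in all cells, beside 3.51%. Both shares are above the background, but nothing is read from counts this small.

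Marker entries existed for 2 members, both in the cluster that the authors named Early-Stage 1, and the values of Rps26 are given here. Mpo, Elane, Ctsg and Prtn3, 4 early neutrophil genes, were all among the cluster's 20 markers. The authors named clusters from markers, so this is not an independent check of the label. The 2 members with an entry are 1.14% of the 175 members in the neutrophil table. Of all its genes, 0.835% were markers of any of the 9 clusters, so the count was near that pooled background. For Early-Stage 1 alone, which holds both entries, the background is smaller, 20 of the 21544 genes listed in neutrophils. With a count of 2, nothing more is read from this. The 8 other clusters, with 160 markers in all, held no member. The marker values compare a cluster with all other neutrophils, were made from those same cells by the authors, pool both libraries, and are given as a description.

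Rps26 encodes a protein near the mRNA exit channel of the small subunit (ENSMUSG00000025362.6, protein-coding, GRCm38 chromosome 10, 128624534 to 128626747, minus strand, 4 exons). In the authors' deposited table it was above 0 in 97.72% of Early-Stage 1 cells and in 21.41% of the other neutrophils. Its log2 fold change was 3.04, on depth-scaled values with a pseudocount of 1.

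Rps26 lay in the middle of the cluster's list. By the authors' marker score, the product of the log2 fold change and a specificity score, it was at rank 12 of 20 (2.65). The scores of the 20 markers ran from 2.42 to 4.66. Its share outside the cluster was the fifth highest of the 20 markers, above their median of 17.0%. The highest was that of Ptma, at 26.34%.

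**Figure D3:**
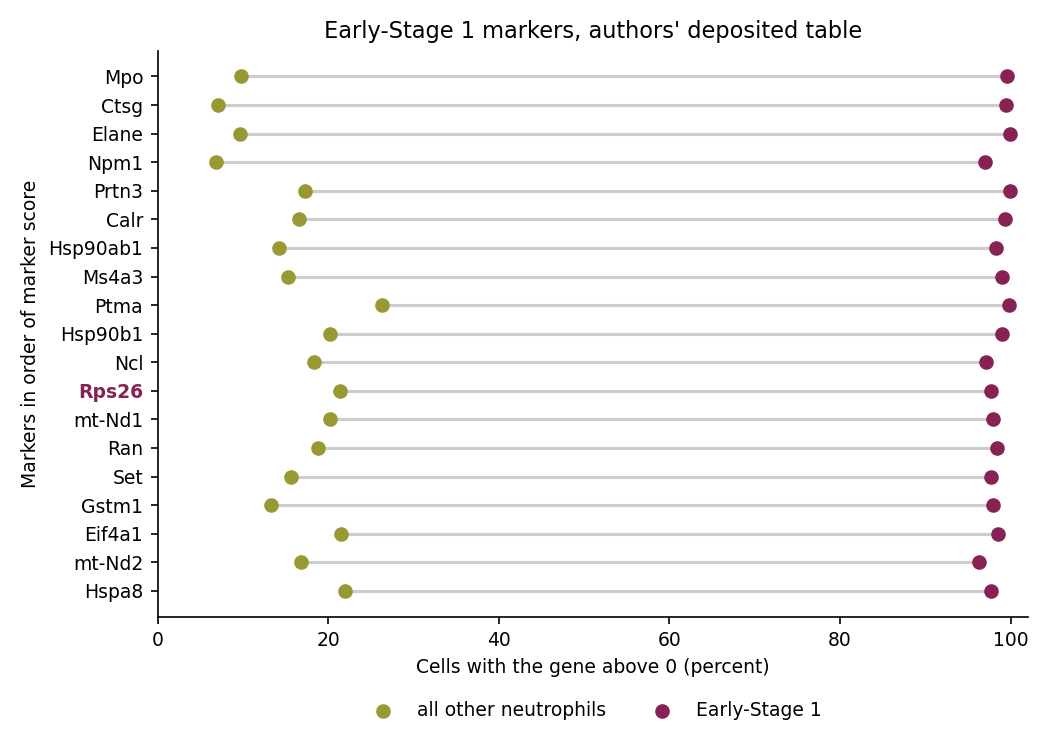
Percent of cells with each gene above 0, in Early-Stage 1 and in all other neutrophils, for 19 of the 20 Early-Stage 1 markers of the authors' deposited table. Rps26, in bold, joins a share of 97.72% inside the cluster with 21.41% outside, towards the upper end of the outside range.

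Other genes of protein synthesis stood in the same list. From lists fixed by pathway, Npm1 and Ncl were 2 of 30 ribosome biogenesis genes and Eif4a1, an RNA helicase of translation initiation, was 1 of 29 translation factors listed in neutrophils, beside the 0.835% of all genes that were markers. With counts of 1 and 2, nothing is read from these shares. No gene of these lists was a marker of another cluster, and none of the 16 regulators was a marker at all. In the authors' deposited table, Npm1 had a log2 fold change of 3.97 and was above 0 in 96.97% of Early-Stage 1 cells and 6.81% of the others. Ncl had 3.06, with 97.09% and 18.35%, and Eif4a1 had 2.82, with 98.48% and 21.47%. Npm1 thus had the lowest outside share of the 20 markers, and Rps26 had an outside share near that of Eif4a1.

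The other 173 members listed in neutrophils had no marker value, and the way markers were ranked bears on which genes could have one. The authors' specificity score is the fraction of cluster cells with the gene, reduced by up to a factor of 0.5 as the gene is found outside the cluster. A gene above 0 in every neutrophil has a specificity score of 0.5. To reach the lowest marker score of Early-Stage 1, such a gene would have needed a log2 fold change of 4.83, which among the 20 markers only Mpo exceeded (4.92). The same limit was 2.24 in Early-Stage 2, 1.03 in Inflammation and 0.46 in Migration 1. Each of the 180 markers was listed for 1 cluster only, and none of the sources used here states whether a gene could be listed for several. The lack of a marker entry therefore does not show that a member was level across clusters.

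**Figure D4:**
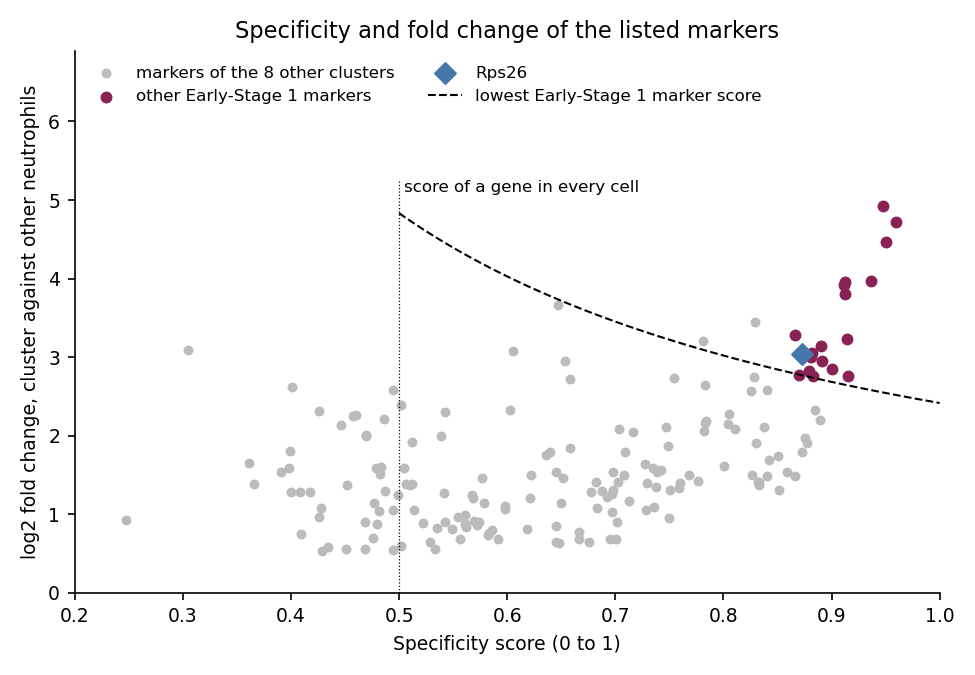
Specificity score and log2 fold change of 179 of the 180 markers in the authors' deposited table. The dashed line joins combinations equal to the lowest Early-Stage 1 marker score (2.42), and the dotted line marks the specificity score of 0.5 of a gene found in every cell, where the dashed line is at 4.83.

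Detection of Rps26 was given for Early-Stage 1 and for all other neutrophils together, and these also differed in depth. Early-Stage 1 had the most UMIs per cell of the 9 clusters, with medians of 21152 in shSCR (472 cells) and 15679 in shZdhhc17 (319 cells). All other neutrophils had medians of 2211 and 1299, so the ratio was 9.57 in shSCR and 12.1 in shZdhhc17. Only 5.01% of the other neutrophils (95% exact interval 4.6 to 5.46) reached 13913 UMIs, the lower quartile of Early-Stage 1. The part of depth in the higher detection of this gene was not tested. Early-Stage 2, the next deepest cluster with medians of 15315.5 and 11186, had no member among its markers. Each marker was listed for a single cluster, and the cells compared with Early-Stage 2 include Early-Stage 1. Nothing on depth is therefore read from this.

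Along the authors' order of clusters, depth was highest in Early-Stage 1 and lowest in Inflammation, where the medians were 1175 UMIs in shSCR and 906 in shZdhhc17. The order was not strict: NETosis 2 had 9036.5 and 7014, above NETosis 1 at 8747 and 6869.5. With both libraries pooled, NETosis 1 was the higher (8252 against 7842). In shZdhhc17 only, Migration 2 (1494) was above Migration 1 (1473). Hypoxia/Angiogenesis, last in the order, had 1295 in shSCR and 954 in shZdhhc17, above Inflammation. Early-Stage 1 had 18.0 times as many UMIs per cell as Inflammation in shSCR and 17.3 times in shZdhhc17. The detected genes per cell went from medians of 4404 and 3875 to 695.5 and 582. The mitochondrial percent went the same way, from 5.96% and 6.25% in Early-Stage 1 to 0.20% and 0.00% in Inflammation. The mitochondrial genes mt-Nd1 and mt-Nd2 were Early-Stage 1 markers beside Rps26. In each cluster the shZdhhc17 cells had the lower median of UMIs.

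**Figure D5:**
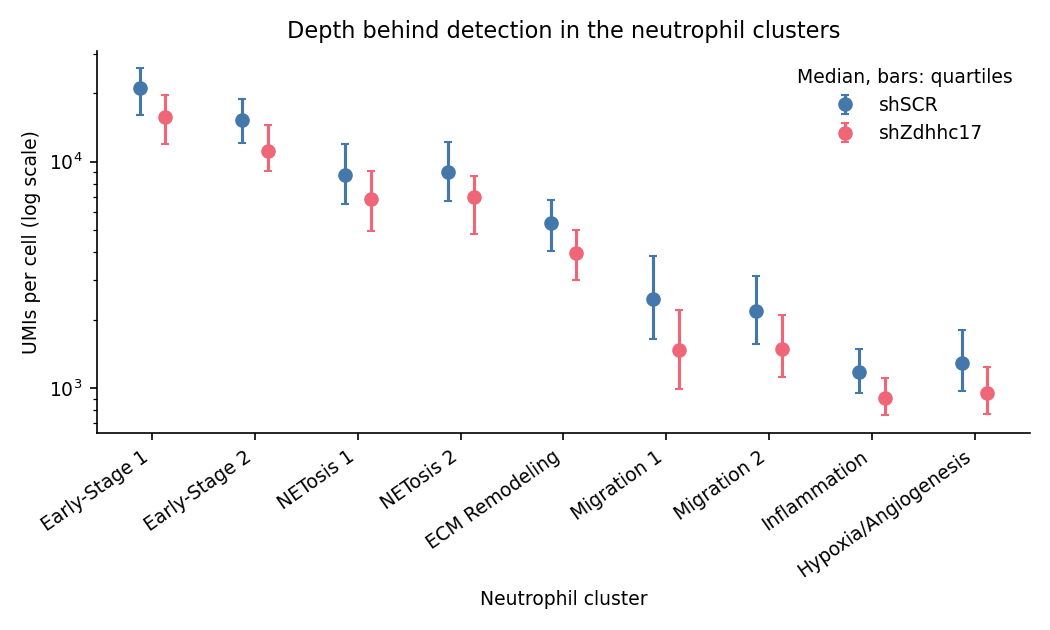
UMIs per cell (log scale) in the 9 neutrophil clusters, in the order of the authors' marker table, for the shSCR and shZdhhc17 libraries. Points are medians and bars span the quartiles of cells. Early-Stage 1 is highest in both libraries (21152 and 15679), and Inflammation is lowest (1175 and 906).

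The libraries held 22860 shSCR and 21511 shZdhhc17 cells, with 214842365 and 172527305 UMIs. Of the cell identifiers, 609 numbers occurred in both libraries. Over the 17 annotated cell types, the median of UMIs per cell ran from 944.5 to 15991.5 in shSCR. In shZdhhc17 it ran from 839.5 to 12587. B cells were lowest and the cells annotated as MDSCs highest in both.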

How the data were processed

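The authors ran the BD Rhapsody pipeline, corrected counts for ambient RNA and named clusters and cell types from markers, per the file headers. Gene symbols are those of GRCm38 (mm10), per the file headers, and the submitters' processing notes name Seurat 4.1.0. For the pipeline's version and the correction tool, nothing is given in the sources used here. The deposited cell tables hold counts per cell (total UMIs and detected genes) and the mitochondrial percent of UMIs. The authors' marker table holds log2 fold changes from Seurat's Wilcoxon method, the deposited fraction of cells above 0 (printed as a percent), and the authors' specificity score and marker score, per the file headers. The gene tables hold yes or no flags.

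From these, members were counted by class, listing, variable flag and marker entry with Python 3.11.15 and pandas 2.3.3, each beside the same count over all genes. The counting and run search were tested on simulated data. The exact (Clopper-Pearson) 95% interval from SciPy 1.17.1 covers counting error only. Positions, exons and snoRNA genes come from GENCODE M21, where all 179 symbols matched. Transcript lengths are of the longest APPRIS principal transcript. Start regions come from RefSeq (GRCm38.p6). The 36 members without an entry are in no count of start regions. The pyrimidine run used a minimum of 7 bases. The values of 1 member with a marker entry are not reported here. Named were all other members with a marker entry or variable flag, all that are no ribosomal protein by symbol, those not listed in neutrophils, paralogues with parents, stalk genes and subunit anchors. Members and lists were chosen with earlier results of these data known. Doublet labels were left out of cell type medians. With 1 library per group, no p-value was computed. Planned values of the ribosomal UMI share were not computed, and the depth columns are given in their place.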

Additional observations from a re-analysis of the deposited data

How the results depend on the processing

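The share of members listed in neutrophils (97.8%) was 97.7% over the 87 cytosolic ribosomal protein genes and paralogues, with ribosomal fusion genes included and kinases and -ps genes left out. It stood beside 79.9% rather than 75.5% with protein-coding genes as background. The share with a marker entry was 1.14%, and 2.35% (2 of 85) over those cytosolic genes, beside 0.835% of all genes or 1.11% of protein-coding genes. The share among the variable genes was 0 under each alternative. The use of the neutrophil table for variable genes was added after the data were seen. Alternatives for the UMI share (per-cell medians, UMI minimums, denominator without mitochondrial UMIs) were not run. No paired analysis was possible because each group is 1 pooled library, and no library could be left out. UMIs per cell limit what can be detected, with the lowest medians in Inflammation (1175 and 906 UMIs).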
